A study of Mus musculus with 4 samples.

Results

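The cytosolic ribosomal protein genes encode the protein subunits of the ribosomes that translate nuclear messages. They were taken as every probe, other than controls, whose mapped mouse symbol is Rpl or Rps followed by a digit, Rplp0, Rplp1, Rplp2 or Rpsa, without the Rps6k kinases and without the mitochondrial Mrpl and Mrps genes. This rule took 121 of 41174 probes and 84 of 16358 mapped symbols. Of the 84 genes, 46 encode large-subunit proteins and 31 small-subunit proteins, which are all 77 genes of the canonical list used here, and 7 are paralogs or relatives. In the comparison of knockout with wild type, 113 of the 121 probes and 81 of the 84 genes had a usable level.

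A ribosome joins a large subunit, which makes the peptide bond, to a small subunit, which reads the message. Cells make their proteins in matched amounts, and most of these messages begin with a run of pyrimidines after a C, the 5′ TOP motif, through which mTOR signalling controls their translation. Free large-subunit proteins such as Rpl5, Rpl11 and Rpl23 can bind Mdm2 and so restrain the breakdown of p53. In the developing kidney the ureteric bud is a branching, growing epithelium that forms the collecting ducts, and growing cells carry many ribosomes.

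RNA came from fluorescent cells of the collecting duct and ureteric bud, sorted from newborn mice at postnatal day 1 and pooled. Knockout cells carried HoxB7CreEGFP and PRR flox/flox alleles, and wild-type cells carried the same CreEGFP transgene with PRR+/+, so Cre and EGFP were present in both genotypes. PRR is the (pro)renin receptor, encoded by Atp6ap2, and the HoxB7 promoter limits its deletion to cells in which Cre is active. Each labelling used 0.5 µg of total RNA. The 4 two-colour Agilent arrays fall into 2 groups of 2. On KO_vs_WT replicates 1 and 2, knockout RNA carried Cy5, with wild-type pool 1 or 2 in Cy3. On WT_self replicates 1 and 2, wild-type pool 1 or 2 carried both dyes. No array swapped the dyes, and all 4 lay on 1 slide. The groups follow the source named for each channel. The titles name the genotypes the other way round, and in the description of each self array the number of its pool is switched. If the titles were right, Cy5 of the KO_vs_WT arrays would hold wild type. The Cy5 comparison would then set wild type against wild type, and the ratio within a KO_vs_WT array would turn in direction. Nothing in the labels says that replicate arrays came from separate animals. The p-values rest on a spread between arrays, which in the knockout may be technical only and in wild type includes the difference between 2 pools. Over all genes in Cy5 the SD of pool 2 minus pool 1 was 0.469 log2. That of the second knockout array minus the first was 0.154 log2.

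The Cy3 channel of KO_vs_WT replicate 1 was almost empty: 28 of its 41174 probes were well above background, and 0 of the 121 ribosomal protein probes. Genotypes were therefore set against each other in Cy5, where 117 and 116 ribosomal protein probes were well above background on the knockout arrays and 116 on each wild-type array. The targeted gene Atp6ap2 had Cy5 levels of 8.08 and 7.72 in the knockout, against 8.38 in wild-type pool 1 and 8.51 in pool 2 (log2 intensity). Both knockout arrays lay below both pools, by 0.55 ± 0.17 log2 (SE, n = 2 arrays a group), and the difference did not pass limma's test (adjusted p = 0.803). The labels do not say where its probe lies relative to the floxed part of the gene, so this is a weak check of them. All 9 principal cell markers and all 12 markers of the ureteric bud lineage were well above background in Cy5 on all 4 arrays. All 7 proximal tubule markers that could be tested also were, with a median level of 7.06 and 7.14 on the knockout arrays, 7.33 in pool 1 and 9.76 in pool 2.

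Of the 84 genes, 64 have a promoter in the RefSeq table of GRCm38.p6, 57 of them canonical. A C followed by C or T letters, 8 or more in all, was searched on the sense strand from 40 bases before the start to 30 after it, and 36 of the 57 held one (63.2%), against 22.6% of all 27025 promoters in the table. A C with 4 more C or T letters exactly at the annotated start, the form of a TOP message, was found in 12 of the 57 (21.1%), against 2.49% of all. CCGGAAG, the core bound by ETS factors such as GABP, lay on either strand within 250 bases before the start in 18 (31.6%), against 7.05% of all. TATAAA was in the last 50 bases before the start, on the strand of the gene, in 0 of the 57, against 3.78% of all. The reverse of CCGGAAG begins with pyrimidines and can overlap a run. The windows below belong to genes that the values turn on. Each runs 5′ to 3′ on the gene's strand, from 40 bases before the annotated start to 30 bases into the transcript, with runs and CCGGAAG in capitals. They lie at chr4:86857338-86857407 (Rps6, minus strand), chr7:24884552-24884621 (Rps19, plus), chr17:27635215-27635284 (Rps10, minus), chr1:39367811-39367880 (Rpl31, plus), chr5:107900488-107900557 (Rpl5, plus) and chr3:86142639-86142708 (Rps3a1, minus).
Rps6: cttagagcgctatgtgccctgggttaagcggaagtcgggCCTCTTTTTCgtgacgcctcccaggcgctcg
Rps19: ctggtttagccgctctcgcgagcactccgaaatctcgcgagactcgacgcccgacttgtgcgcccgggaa
Rps10: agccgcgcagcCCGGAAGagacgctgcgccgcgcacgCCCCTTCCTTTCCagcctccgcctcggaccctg
Rpl31: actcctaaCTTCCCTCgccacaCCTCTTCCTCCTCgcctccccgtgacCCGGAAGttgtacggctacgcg
Rpl5: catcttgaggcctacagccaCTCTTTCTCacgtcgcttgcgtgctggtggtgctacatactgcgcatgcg
Rps3a1: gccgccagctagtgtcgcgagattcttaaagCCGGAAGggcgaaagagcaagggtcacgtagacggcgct
Rps6, Rps10, Rpl31 and Rpl5 hold a pyrimidine run in this window, Rps3a1 holds CCGGAAG without a run, and Rps19 holds neither. Rps10 holds CCGGAAG before the start as well. Rpl31 holds it after the start, and that match lies outside the stretch counted above. A match is a string of letters and no measured binding site, and the annotated start may differ from the start used in these cells.

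Ribosomal protein probes were among the brightest of the arrays. Each gene is represented by its brightest probe, in log2 intensity after quantile normalization of the 4 Cy5 channels. The median over the 81 genes was 14.16 and 14.09 on the knockout arrays, against 14.21 in wild-type pool 1 and 14.08 in pool 2, and the median of all genes on the same arrays lay between 7.58 and 7.59. A mean level above 14 was found for 44 of the 81 genes and for 93 of 16492 genes in all (0.564%). A further 24 ribosomal protein genes lay between 12 and 14, 8 between 10 and 12, and 5 below 10. Brightness also depends on each probe's sequence, so these levels do not order the genes by message abundance. The sequences of the probes were not used here, and whether a probe also binds processed pseudogenes, of which ribosomal protein genes have many, was not tested.

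The genes Rpl3l, Rpl39l and Rpl13a had no value in the comparison of genotypes. The probe of Rpl3l, a paralog of Rpl3 known from striated muscle, had Cy5 levels of 6.49 and 6.59 in the knockout, against 6.26 in each wild-type pool, and was not well above background in Cy5 on any array. The same held for both probes of Rpl39l, a paralog of Rpl39 known from the testis. Rpl13a, a large-subunit gene often used as a PCR reference, lost its spot on WT_self replicate 1, and its other levels were 13.81 and 13.61 in the knockout and 13.77 in pool 2. The remaining untested probes were second probes of Rpl6, Rps15a and Rpl37, and a probe of a small-subunit gene not reported by name. That probe had no value on WT_self replicate 1, and another probe stood for its gene.

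After quantile normalization, knockout and wild type differed little across these genes. The difference of knockout minus wild type had a median of -0.05 log2 over the 81 genes, with quartiles of -0.11 and 0.04, and ran between -0.45 for Rps6 and 0.17 for Rpl31. For 75 of the 81 genes it was under 0.2 log2 in either direction. The median over all 16492 genes was 0.02. The SD between genes was 0.117 for the ribosomal protein genes and 0.286 for all genes, and these SDs were not matched for level. Quantile normalization gives the brightest probes of every array nearly the same set of values. It can hold differences small among genes this bright, and by how much was not tested. The standard error of a single gene's difference had a median of 0.122 among the ribosomal protein genes, and in 61 of the 81 genes the difference was no larger than its standard error. No ribosomal protein gene passed limma's two-sided test with Benjamini-Hochberg adjustment over all genes at 0.05 (0 of 81, background 0%, smallest adjusted p = 0.803). At an unadjusted p under 0.05 there was 1 of 81, Rps6, against 4.22% of all genes. The 95% interval of the difference lay within 1.5-fold either way for 69 of the 81 genes and reached past 1.5-fold for 12.

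The 2 knockout arrays lay below both wild-type arrays in 25 of the 81 genes (30.9%), against a background of 17.5% of all genes. They lay above both in 6 genes (7.41%), against 22.2% of all genes. By subunit, 13 large-subunit genes lay below and 5 above, of 45 tested. Of the 31 small-subunit genes, 10 lay below and 1, Rps23, lay above. The median difference was -0.04 log2 for large-subunit genes and -0.06 log2 for small-subunit genes. The plot of all genes by array shows that the gaps in these counts are small for most genes.

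**Figure D1:**
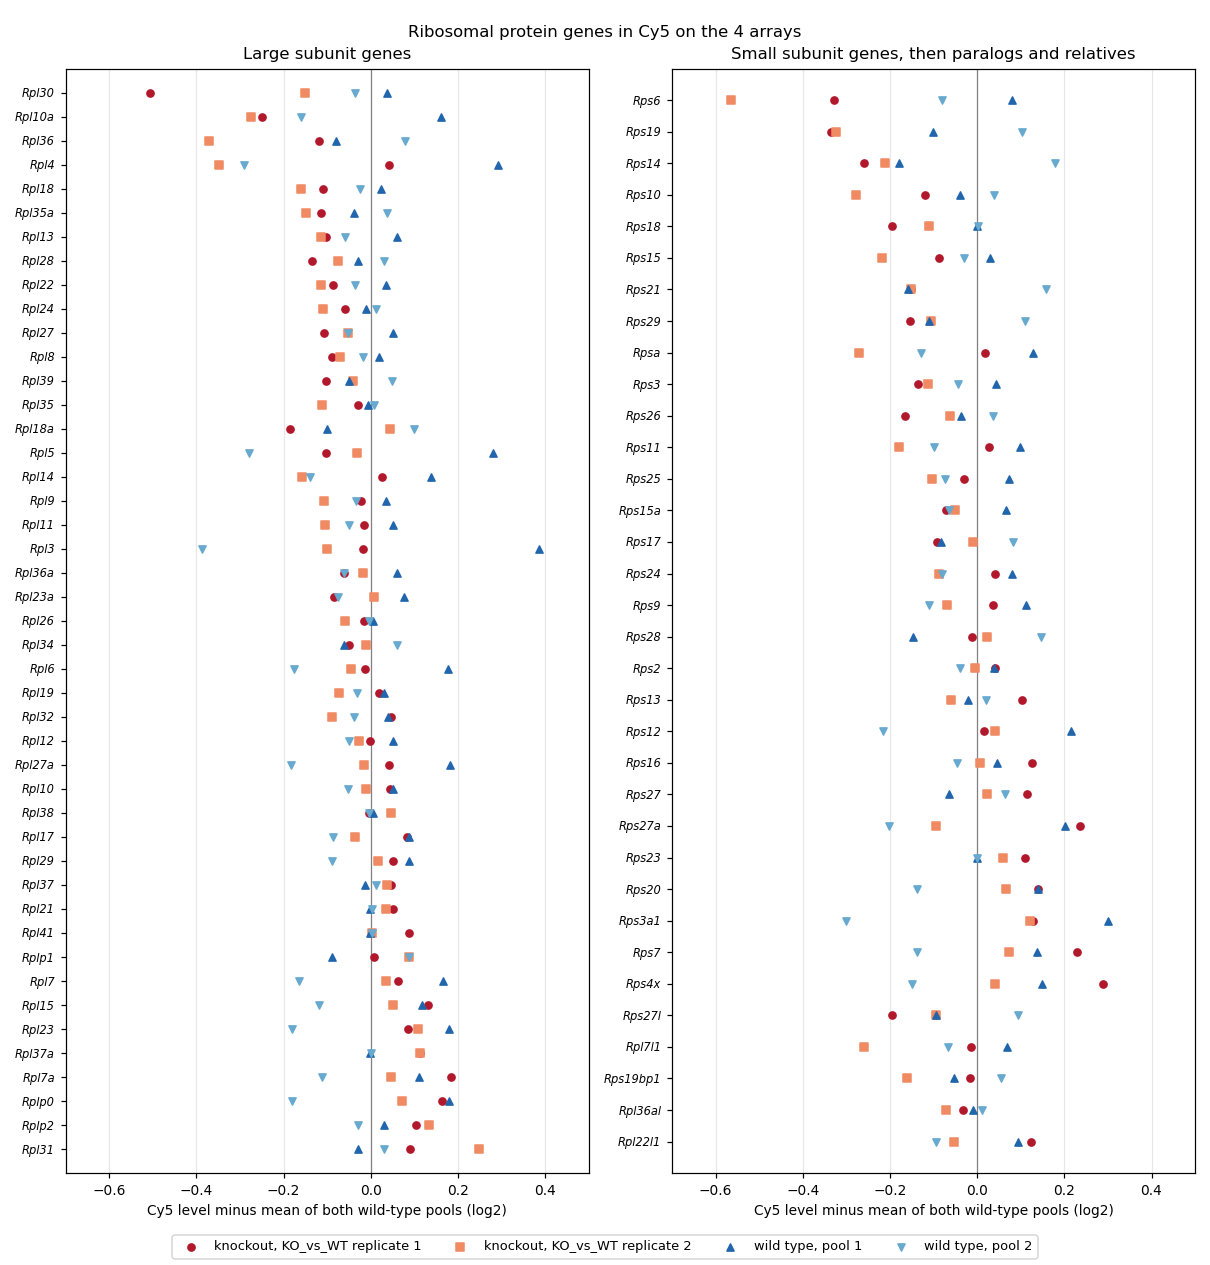
Cy5 level of 79 tested genes on each array, minus the mean of both wild-type pools (x axis, log2), with 1 point for each array and genes ordered by the difference of knockout minus wild type within the large subunit, the small subunit and the relatives. Most points lie within 0.2 log2 of 0, Rps6 has the lowest single knockout point, on the right, and Rpl3 and Rps3a1 show the widest gaps between the wild-type pools.

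The direction of the group depended on how the arrays were scaled. When each array was centred on its median in place of quantile normalization, the median over ribosomal protein genes was 0.06 log2 and that over all genes -0.01. Then 2 of the 81 genes lay below both wild-type arrays, against 18.5% of all genes, and 13 lay above both, against 23% of all genes. Relative to all genes the ribosomal protein genes stood at -0.07 log2 under quantile normalization and at 0.07 log2 under median scaling. Scaling by the 75th percentile shifted the median of all genes to -0.18 log2 and that of the ribosomal protein genes to -0.10 log2. Like median scaling it subtracts 1 value per array, so the relative value of 0.07 log2 is the same by construction. With it 27 of the 81 genes lay below both wild-type arrays (33.3%), against 31% of all genes. Above both lay 1 gene (1.23%), against 12.2% of all genes. Among genes with a mean level of at least 12, a limit chosen after the data had been seen, the median was -0.03 log2 over 68 ribosomal protein genes and -0.01 log2 over all 403 such genes.

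**Figure D2:**
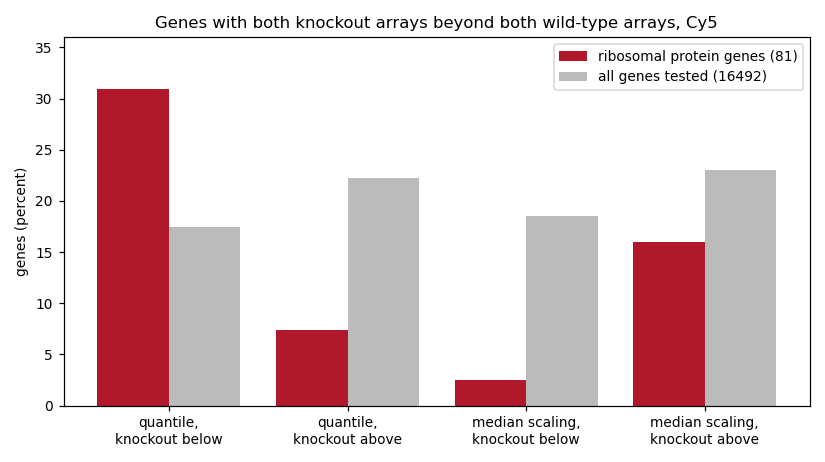
Share of genes (y axis, percent) whose 2 knockout arrays lay below or above both wild-type arrays in Cy5, for the 81 ribosomal protein genes (red) and all 16492 genes tested (grey), under 2 scalings. Below both wild-type arrays stood 30.9% of ribosomal protein genes under quantile normalization and 2.47% under median scaling.

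Among small-subunit genes the lowest difference was that of Rps6, whose protein is the classical substrate of the S6 kinases. Its Cy5 levels were 11.86 and 11.62 in the knockout, against 12.27 in wild-type pool 1 and 12.11 in pool 2. Both knockout arrays lay below both pools, by 0.45 ± 0.14 log2 (SE, n = 2 arrays a group), with a 95% interval from -0.82 to -0.08 and an adjusted p of 0.803 in limma. Under median scaling its difference was -0.23. On the array that held knockout and wild type side by side, Rps6 stood at -0.12 log2.

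Rps19, the gene most often mutated in the human anaemia named after Diamond and Blackfan, had levels of 11.68 and 11.69 in the knockout, against 11.91 in pool 1 and 12.12 in pool 2. The groups did not overlap, and the difference was -0.33 ± 0.13 log2 (SE, limma adjusted p = 0.803). Rps14, which lies in the interval lost in the human 5q- syndrome, had 14.29 and 14.34 in the knockout, against 14.37 in pool 1 and 14.73 in pool 2. Its knockout levels were close to pool 1 and lower than pool 2, with a difference of -0.24 ± 0.16 log2 (SE, limma adjusted p = 0.803). Without WT_self replicate 1, which leaves pool 2 as the only wild-type array, Rps19 (adjusted p = 0.0242) and Rps14 (adjusted p = 0.0284) passed in limma at -0.43 and -0.41 log2, as did 4256 genes in all. Under the other settings their adjusted p lay between 0.374 and 1 for Rps19 and between 0.681 and 1 for Rps14.

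The difference of Rps10, another small-subunit gene, was -0.20 log2, with knockout below both pools. Rps18, used as a PCR reference, had 16.11 and 16.19 in the knockout, against 16.30 in pool 1 and 16.30 in pool 2, a difference of -0.15 log2 with no overlap. These are among the highest values, which quantile normalization nearly fixes, so such a difference is mainly one of rank. Rps29, another such reference, was at -0.13 log2, and its groups overlapped. Rps23, which lines the decoding centre, was at 0.09 log2 with both knockout arrays above both pools. None of these passed the test.

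Among large-subunit genes the lowest was Rpl30, with levels of 10.48 and 10.83 in the knockout, against 11.02 in pool 1 and 10.95 in pool 2. The groups did not overlap, and the difference was -0.33 ± 0.16 log2 (SE, limma adjusted p = 0.803). On the array shared by knockout and pool 2, Rpl30 stood at 0.087 log2, so it was not lower in the knockout there. Rpl10a had 11.55 and 11.53 in the knockout, against 11.96 in pool 1 and 11.64 in pool 2. Its knockout levels were only slightly lower than pool 2, and its difference was -0.26 ± 0.15 log2 (SE, limma adjusted p = 0.803). Rpl36 was at -0.24 log2 with both knockout arrays below both pools. The highest was Rpl31, a dim probe, with 8.40 and 8.56 in the knockout, against 8.28 in pool 1 and 8.34 in pool 2. Its difference was 0.17 ± 0.12 log2 (SE, limma adjusted p = 0.803), and the groups did not overlap.

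The ribosomal stalk, which recruits elongation factors, is built of Rplp0 with Rplp1 and Rplp2. Rplp0 had 15.60 and 15.51 in the knockout, against 15.61 in pool 1 and 15.26 in pool 2, so both knockout arrays lay between the pools. Rplp2 had 15.34 and 15.37 in the knockout, against 15.27 in pool 1 and 15.21 in pool 2, with both knockout arrays above both pools by 0.12 ± 0.11 log2 (SE). Rplp1 stood at 0.05 log2 with overlapping groups. Rpl37 (0.04 log2), Rpl21 (0.04 log2) and Rpl37a (0.11 log2) were the other large-subunit genes with both knockout arrays above both pools, and none passed the test. Rpl37a stood at 16.30 on both knockout arrays, the value that Rps18 took in pool 2, so its difference is also mainly one of rank. The signs of Rpl21 and Rpl37a turned under other scalings, and that of Rpl37 turned with the software's processed signal.

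Of the Mdm2-binding proteins, Rpl5 had levels of 14.50 and 14.57 in the knockout, against 14.89 in pool 1 and 14.33 in pool 2. The knockout arrays lay between the pools, and the difference was -0.07 ± 0.21 log2 (SE). Rpl11, which binds Mdm2 together with Rpl5 and the 5S RNA, had 14.90 and 14.81 in the knockout, against 14.97 in pool 1 and 14.87 in pool 2. Its groups overlapped at -0.06 ± 0.12 log2 (SE). Rpl23 stood at 0.10 ± 0.16 log2 (SE), again between the pools. The PCR references Rpl19 and Rpl32 were at -0.03 and -0.02 log2 with overlapping groups. The adjusted p of these 5 genes in limma, each by its brightest probe, was 0.879 or above. A second probe of Rpl19 had 12.44 and 12.46 in the knockout, against 12.72 in pool 1 and 12.69 in pool 2. It stood at -0.25 log2 with both knockout arrays below both pools, and at -0.22 log2 on the array shared by knockout and pool 2.

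The 5 relatives that were measured had a median difference of -0.09 log2, and 4 of the 5 were negative. Under median scaling these 4 turned positive, and the median was 0.13 log2. Rps27l, a paralog of Rps27 known as a p53 target in human cells, was at -0.14 ± 0.13 log2 (SE) with both knockout arrays below both pools. Rpl36al, a paralog of Rpl36a, was also below both, at -0.05 log2. Rpl7l1, a relative of Rpl7, stood at -0.14 log2 and Rpl22l1, the paralog of Rpl22, at 0.04 log2, both with overlapping groups. Rps19bp1 encodes a binding partner of Rps19 and no ribosomal protein, and it stood at -0.09 log2 with overlap. None passed the test.

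Against each wild-type pool alone, with 1 array a pool and no test, ribosomal protein genes stayed within 1.5-fold at the brightest probe of each gene. Both comparisons share the knockout arrays. Second probes of Rps3a1 (5.10-fold), Rpl35a (0.62-fold) and Rps19bp1 (0.63-fold) went past this limit against pool 2. Against pool 1 the median difference was -0.07 log2, with 61 of 81 genes negative, and against pool 2 it was 0.0050 log2, with 37 of 81 negative. The knockout mean was at least 1.5-fold below pool 1 in 0 of 81 genes (background 0.54%) and at least 1.5-fold above it in 0 (background 1.11%). It was at least 1.5-fold below pool 2 in 0 of 81 genes (background 5.4%) and at least 1.5-fold above it in 0 (background 6.79%). Under median scaling the medians were 0.02 log2 against pool 1 and 0.14 log2 against pool 2.

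The wild-type pools differed from each other more than the knockout arrays did. Pool 2 minus pool 1 in Cy5 had a median of -0.08 log2 and an SD of 0.212 over the 81 genes, and the second knockout array minus the first had a median of -0.04 log2 and an SD of 0.119. Pool 2 lay at least 1.5-fold below pool 1 in 2 genes, Rpl3 and Rps3a1 (background 6.99%), and at least 1.5-fold above it in 0 (background 6%). In 18 of 81 genes both knockout arrays lay between the pools (22.2%), against 27.9% of all genes. Of these 18, 14 were lower in pool 2 and 4 were higher, Rps21, Rps28, Rplp1 and Rpl34. Cell type markers differed between the pools as well. Pool 2 minus pool 1 had a median of 2.29 log2 over 7 proximal tubule markers and 1.61 log2 over 4 markers of the loop and distal tubule. It was -0.92 log2 over 3 erythroid markers, -0.70 log2 over 8 of stroma and pericytes, -0.22 log2 over 3 of endothelium and -0.21 log2 over 2 of nephron progenitors. Over 12 markers of the ureteric bud lineage it was -0.22 log2, over 9 of principal cells -0.18 log2 and over 5 of leukocytes -0.059 log2. The part of these cells in the differences between pools was not tested. In bulk samples fewer cells of a type and less RNA per cell cannot be told apart.

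Rpl3, which lies next to the peptidyl transferase centre, had levels of 13.32 and 13.24 in the knockout, against 13.72 in pool 1 and 12.95 in pool 2. Both knockout arrays lay between the pools. Pool 2 minus pool 1 was -0.77 log2 in Cy5 and -0.40 log2 in Cy3 of the self arrays. Rpl5 was at -0.56 log2 in Cy5 and -0.43 in Cy3 on the same contrast, and the 3 probes of Rpl7 were at -0.33, -0.61 and -0.68 log2 in Cy5. Rpl4 stood at -0.58 log2 in Cy5 and -0.33 in Cy3. Rps14 and Rps21 were higher in pool 2, by 0.36 and 0.32 log2 in Cy5. In Cy3 they were higher in pool 2 by 0.28 and 0.15 log2.

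The gap between pools was widest for the second probe of Rps3a1, a small-subunit gene. This probe had Cy5 levels of 11.26 and 11.19 in the knockout, against 11.63 in pool 1 and 8.87 in pool 2. The knockout arrays were close to pool 1 and well above pool 2, by 2.35 log2 or 5.10-fold, and lay below pool 1 by a difference of -0.40 log2. In Cy3 pool 2 read 7.75 on its self array and 7.82 on KO_vs_WT replicate 2, against 10.41 for pool 1. Pool 1 was 6.74-fold above pool 2 in Cy5, and in Cy3 it was 6.31-fold above the self array and 6.02-fold above KO_vs_WT replicate 2. On the array shared by knockout and pool 2, the knockout stood 4.37-fold above pool 2 at this probe. The first Rps3a1 probe, which is brighter, had 14.05 and 14.04 in the knockout, against 14.22 in pool 1 and 13.62 in pool 2. Its pool difference was -0.60 log2 in Cy5 and -0.63 log2 in Cy3. Both probes carry the same transcript accession in the file, and whether both read only that message was not tested. Without WT_self replicate 1, Rps3a1 by its first probe passed limma's test at 0.42 log2 (adjusted p = 0.0254), and under the other settings its adjusted p lay between 0.456 and 1.

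**Figure D3:**
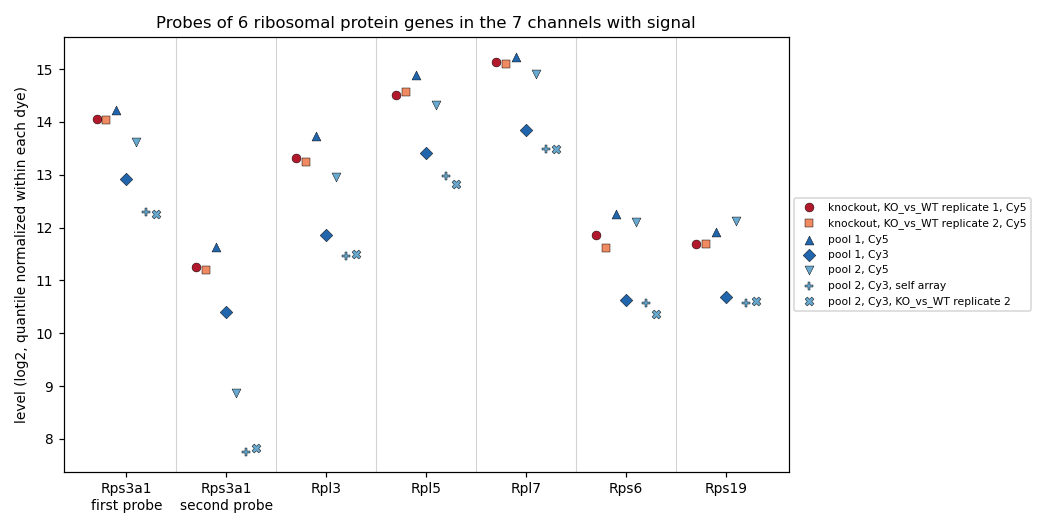
Levels (y axis, log2, normalized within each dye) of 7 probes of 6 genes in the 7 channels with signal, with 1 point for each channel. Within each dye the second probe of Rps3a1 separates the wild-type pools, at 8.87 in pool 2 against 11.63 in pool 1 in Cy5. The knockout points of Rps6 and Rps19 lie just below both Cy5 wild-type points.

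KO_vs_WT replicate 2 held knockout in Cy5 and wild-type pool 2 in Cy3 on the same spots. The log2 ratio after loess had a median of -0.11 over 82 ribosomal protein genes and of 0.03 over all 18074 genes. With 1 probe a gene, it was at least 1.5-fold negative in 0 of 82 genes (background 4.68%) and at least 1.5-fold positive in 0 (background 5.83%). Second probes of Rps19bp1 (-0.67) and Rps3a1 (2.13) went past this limit. With 1 such array there is no replicate check. The lowest ratios were those of Rpl9 (-0.45), Rps21 (-0.43) and Rpl36 (-0.41), and the highest those of Rpl5 (0.34), Rps3a1 (0.32) and Rps20 (0.31). The same genes on the self array of pool 2, where both dyes carry the same RNA, had a median of -0.00061 log2 and lay between -0.24 and 0.25, so a dye difference of this size was present without any difference in RNA. After that array's ratio was subtracted the median was -0.07 log2. On the self array of pool 1 most of these genes had a negative ratio, again without any difference in RNA, and no median was taken there. Rpl9 stood at -0.28 on it, Rps21 at -0.31 and Rpl36 at 0.00037. Rpl5 was at -0.077, Rps3a1 at -0.12 and Rps20 at -0.098. Other ways of centring moved the median of all genes, and that of the ribosomal protein genes by a different amount. With median centring alone the median was 0.60 log2 for ribosomal protein genes and 0.34 log2 for all genes, and 42 of 82 ribosomal protein genes (51.2%) were at least 1.5-fold positive, against 31.8% of all genes. With the software's processed log ratio the median was 0.015 log2 for ribosomal protein genes and 0.075 log2 for all genes. Relative to all genes the ribosomal protein genes thus stood at -0.14 log2 after loess, at 0.26 log2 with median centring and at -0.060 log2 with the processed log ratio.

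Probes of the same gene mostly lay within 0.2 log2 of each other. That is not close beside the differences themselves, which were under 0.2 log2 in 75 of the 81 genes. There were 27 genes with more than 1 tested probe, of which 23 had 2, 3 had 3 and Rpl29 had 4, making 59 probes in all. Between the highest and lowest probe of a gene the median gap in knockout minus wild type was 0.116 log2, and the gap was under 0.2 log2 in 21 of the 27 genes. The sign differed between probes in 9 genes, and in 0 of these was the gap 0.3 log2 or more. For Rps21 the 2 probes stood at -0.15 and -0.17 log2. Rpl35a had the second widest gap, with -0.13 log2 for its bright probe and -0.43 log2 for a dim one. Rps3a1 had the widest, with 0.12 and 0.97 log2, its second probe being the one that separates the pools. The 2 probes of Rps19bp1 differed by 0.52 log2 against pool 2 and by 0.29 log2 against pool 1. Those of Rps3a1 differed by 1.93 log2 against pool 2 and 0.23 log2 against pool 1, and those of Rpl35a by 0.52 and 0.076 log2.

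**Figure D4:**
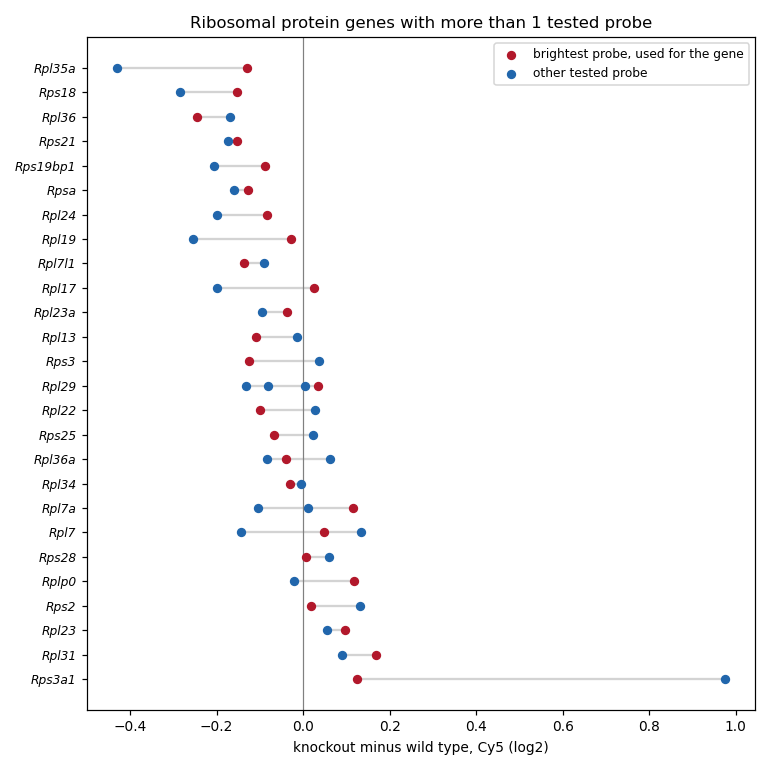
Difference of knockout minus wild type in Cy5 (x axis, log2) for every tested probe of 26 ribosomal protein genes with more than 1, with the brightest probe in red and the others in blue. In most genes the probes lie within 0.2 log2 of each other, and the probes of Rps3a1 stand apart at 0.12 and 0.97.

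Genes that act around the cytosolic ribosome were read in the same comparison. No gene of any list passed the test. The mitochondrial ribosome, which translates the few messages of the mitochondrial genome, had 76 genes with a median of -0.14 log2, and 28 of them (36.8%) had both knockout arrays below both pools and 3 (3.95%) above, against 17.5% and 22.2% of all genes. Its median was -0.02 log2 against pool 1 and -0.28 log2 against pool 2, and under median scaling the overall median was 0.03 log2. The lowest were Mrpl41 (-0.43 log2) and Mrpl28 (-0.33 log2), and the highest Mrps18b (0.14 log2) and Mrps6 (0.11 log2).

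Translation factors and other messages of the TOP class, 22 genes, had a median of 0.05 log2, with 1 gene above both pools (4.55%) and 1 below (4.55%), against 22.2% and 17.5% of all genes. Their median was -0.10 log2 against pool 1 and 0.13 log2 against pool 2. The elongation factor Eef1a1 was lowest at -0.18 ± 0.23 log2 (SE), next to the initiation factor Eif4b at -0.18, and the helicase Eif4a1 was highest at 0.26 ± 0.25 log2 (SE), followed by Eif3a at 0.18. Ribosome assembly, 31 genes, had a median of -0.02 log2, with 5 genes above both pools (16.1%) and 7 below (22.6%), against 22.2% and 17.5% of all genes. Polr1a, the large subunit of RNA polymerase I, had 9.09 and 9.04 in the knockout, against 8.09 in pool 1 and 8.77 in pool 2, which is 0.64 ± 0.25 log2 (SE, limma adjusted p = 0.803). Nucleolin (Ncl) was at 0.25 log2, and Nhp2 and Nop10, proteins of the snoRNA particles that modify ribosomal RNA, were at -0.26 and -0.23 log2.

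The mTOR list, 16 genes, had a median of 0.04 log2, with 4 genes above both pools (Tsc1, Mtor, Akt1s1 and the S6 kinase gene Rps6kb1) and 0 below. The 4 genes are 25% of the list, close to the 22.2% of all genes that lay above both pools. Tsc1, which restrains mTOR complex 1, had 7.88 and 7.70 in the knockout, against 7.58 in pool 1 and 7.20 in pool 2, a difference of 0.40 ± 0.17 log2 (SE, limma adjusted p = 0.803). Mtor itself was at 0.28 ± 0.15 log2 (SE, limma adjusted p = 0.803). Eif4ebp1, whose protein holds back cap-dependent initiation until mTOR phosphorylates it, was at -0.25 log2 and Rps6ka1 at -0.12 log2, both with overlapping groups. The p53 list, 9 genes, had a median of 0.06 log2. Trp53 itself was at -0.34 ± 0.41 log2 (SE) and Sesn2 at -0.29, and Cdkn1a and Phlda3, both p53 targets, at 0.27 and 0.22 log2, all with overlapping groups.

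**Figure D5:**
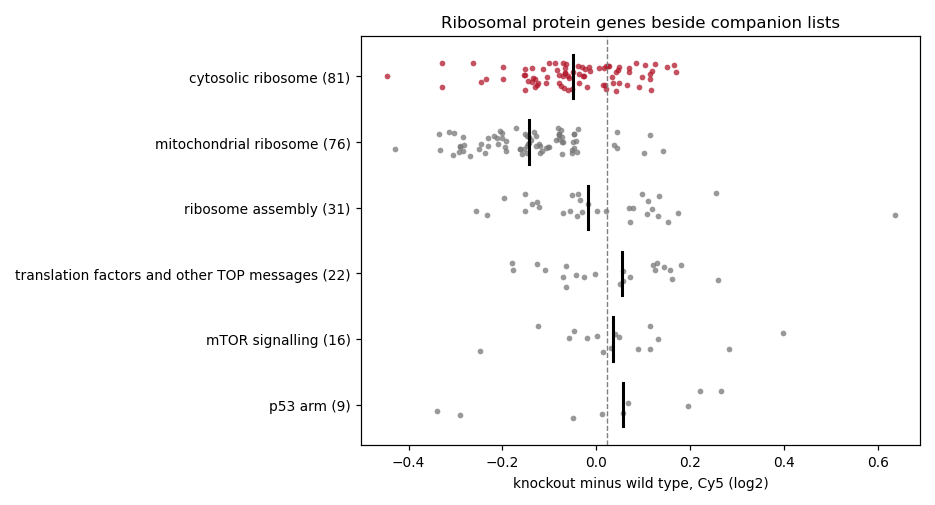
Difference of knockout minus wild type in Cy5 (x axis, log2) for each gene of the cytosolic ribosome and of 5 companion lists, with the number of genes beside each name, a black bar at the list's median and a dashed line at the median of all genes (0.02). The cytosolic ribosomal protein genes centre at -0.05 and the mitochondrial ones at -0.14.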

How the data were processed

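Signals were extracted with Agilent Feature Extraction 10.7.3.1, per the file headers. The deposited intensity columns give each spot's median signal, local background and a processed signal in Cy3 and Cy5. The deposited log10 ratio is that of processed Cy5 over Cy3, per the file headers, and the deposited series table equals it in 45018 of 45018 spots on each array (tolerance 1e-06), and its median is 0.173 on KO_vs_WT replicate 1 and 0 elsewhere.

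Intensities were corrected with normexp (offset 50). Of 45018 spots, 1639 controls, non-uniform or outlying spots and a patch of WT_self replicate 1 that had lost Cy5 signal (361 spots, 2 of them ribosomal protein probes) were left out, and no spot was saturated (0). Cy5 of the 4 arrays was quantile normalized. Probes entered with a value on all 4 and with signal well above background throughout at least 1 genotype, and the brightest stood for a gene. Probes were named through accessions in a RefSeq table (22951 of 41174 matched). limma 3.58.1 in R 4.3.3 tested 16492 genes, two-sided, with Benjamini-Hochberg adjustment at 0.05, and its steps were tested on simulated data. The shared array was loess normalized. The precision is limited by the number of arrays.

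Genes are named by rule: every measured relative, the 8 canonical genes with the largest difference each way whose groups did not overlap (fewer where fewer exist), genes with set roles, and the 2 extremes of each companion list each way. Rpl3, Rpl4, Rpl7, Rpl9, Rps3a1, Rps20, Rps21, Rps28, Rpl34, Rpl29 and Rpl35a were named after their values were seen. A few genes are counted and not reported by name or plotted by gene. Members and lists were chosen with earlier results of these data known. Replicate numbers do not pair the arrays, since the knockout numbers follow accession order only.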

Additional observations from a re-analysis of the deposited data

Results flagged for a closer look

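In 18 ribosomal protein genes (22.2%, against 27.9% of all genes) both knockout arrays lay between the wild-type pools. In such genes the difference from pool 1 and the difference from pool 2 point opposite ways by definition. Pool 2 was the lower pool in 14 of them. The difference between the pools was not tested, since each pool has 1 array in Cy5.

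At the second probe of Rps3a1 the knockout mean minus pool 1 was -0.40 log2 and the knockout mean minus pool 2 was 2.35 log2, with every knockout array below pool 1 and above pool 2. The pools kept this order in both dyes, and the difference was not tested.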

How the results depend on the processing

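Values are log2 differences of knockout minus wild type unless they are counts. The probes of a gene differed in sign in 9 genes also with median scaling and with the stricter filter on dim probes. With 1 probe a gene, 0 ribosomal protein genes were 1.5-fold negative on the shared array under every ratio setting run. These settings did not vary the probe, and a second probe of Rps19bp1 stood at -0.67 after loess.

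Median scaling moved the median of the ribosomal protein genes to 0.061, or 0.073 relative to all genes. The 75th percentile gives the same relative value by construction. With median scaling the genes below and above both pools numbered 2 and 13, and the medians against pools 1 and 2 were 0.020 and 0.14. Median scaling moved the medians of the mitochondrial ribosome and of ribosome assembly to 0.034 and 0.13. It turned Rps27l (0.054), Rpl7l1 (0.013), Rps19bp1 (0.13), Rpl36al (0.13), Rpl5 (0.10), Rpl11 (0.11), Rpl19 (0.027), Rpl32 (0.090), Rps29 (0.0050) and Rpl21 (-0.056). The 75th percentile left 1 gene above both pools (1.23%, against 12.2% of all genes), moved the median against pool 2 to -0.13, and turned Rpl21 (-0.22), Rpl37a (-0.024) and Rplp1 (-0.036). The processed signal turned Rpl37 (-0.18), Rpl21 (-0.090), Rps23 (-0.043), Rpl37a (-0.055) and Rpl5 (0.20). On the shared array the median was 0.60 with median centring (0.34 for all genes), with 42 genes 1.5-fold positive (51.2%, against 31.8% of all genes), and 0.015 with the processed log ratio (0.075 for all genes). The causes were not tested.

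With each array left out in turn, 0 to 3 ribosomal protein genes and 0 to 4256 of all genes passed. The highest counts came without WT_self replicate 1, which leaves pool 2 alone (3 genes of all passed without WT_self replicate 2), and the lone array is assumed to vary like the knockout arrays. Ribosomal protein genes with knockout below every remaining wild-type array numbered 33 to 52 (40.7% to 64.2%, against 25.9% to 38.7% of all genes), and those above 7 to 29 (8.64% to 35.8%, against 30.9% to 48.8% of all genes). The median of the mitochondrial ribosome lay between -0.28 and -0.017 and that of ribosome assembly between -0.038 and 0.047. Signs turned for Rpl22l1 (-0.059 to 0.13), Rpl5 (-0.35 to 0.21), Rpl23 (-0.083 to 0.28), Rplp0 (-0.063 to 0.30), Rplp1 (-0.041 to 0.14), Rpl19 (-0.073 to 0.019) and Rpl32 (-0.088 to 0.047).

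With the replicate block, which does not pair these arrays (correlation of same-numbered deviations 0.0419), 0 genes passed and Rps6 stood at -0.45 (limma adjusted p = 0.876). All 81 genes were well above background in Cy5 on all 4 arrays.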
